A study of Homo sapiens with 12 samples.

Results

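The genes described here encode 9 surface proteins through which a tumour cell meets T cells, natural killer (NK) cells and macrophages: CD274, PDCD1LG2, CD276, NT5E, CD47, PVR, NECTIN2, CD58 and ICAM1. They were taken by gene symbol from a table of raw read counts with 44659 gene rows, and each of the 9 symbols had a row. The counts came from RNA sequencing of A375, an established human skin melanoma cell line that carries an activated BRAF kinase, after exposure to inhibitors of BRAF and of MEK (MAPKi) and after their removal. The labels give the RNA as cytoplasmic, whereas the methods of the study describe total RNA, and libraries were made after depletion of ribosomal RNA.

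The 4 groups had 3 libraries each. Cells given DMSO, the solvent, served as control (CC). Treated cells (TC) were cultured for 72 h with vemurafenib, an inhibitor of mutant BRAF, at 500 nM together with cobimetinib, an inhibitor of MEK, at 500 nM, and were harvested at the end of exposure. Persister cells (PC) had the same exposure followed by 2 days in drug-free medium, and the last group (RC) had the same exposure followed by 9 days in drug-free medium, with passages when needed. All groups were thus the same cell line, with no immune cells added. The solvent control was labelled day 0, so that for PC and RC the removal of the drugs cannot be told apart from the additional days in culture. The question behind the comparisons is which transcripts differ under MAPKi and whether the difference persists once the drugs are gone. Nothing in the labels says whether the 3 libraries of a group were separate cultures, so p-values measure the spread between these libraries, which may in part be technical.

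As background, checkpoint ligands on a tumour cell bind inhibitory receptors on lymphocytes or macrophages: PD-L1 (CD274) and PD-L2 (PDCD1LG2) bind PD-1, CD47 binds SIRP-alpha, and PVR and NECTIN2 bind TIGIT, CD96 or PVRIG as inhibitory receptors and DNAM-1 (CD226) as an activating one. CD73 (NT5E) acts differently, since it is an enzyme that makes extracellular adenosine, which dampens lymphocytes. CD58 and ICAM1 are adhesion ligands, for CD2 and for the integrin LFA-1, and hold the contact that lets a lymphocyte act. In melanoma these molecules are studied because both checkpoint antibodies and MAPKi are in clinical use.

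The libraries held 37773389 to 55567097 counted reads, and 15916 genes with a mean scaled count of at least 10 were tested. Levels are given as counts scaled to a common library size and composition (CPM). Drug action was visible in ETV4, an ETS factor gene that depends on ERK, whose mean level was 235 CPM in CC but 2.62 in TC. DUSP6, the other gene chosen to check drug action, had 77.6, 94.4 and 297 CPM in the CC libraries and a mean of 3.94 in TC. Of the melanocyte-lineage markers, 8 of 8 passed the filter on low counts and their summed level was 1829 to 2007 CPM in CC, 7228 to 10432 CPM in TC, 3649 to 5259 CPM in PC and 1635 to 1696 CPM in RC, with MLANA low at a mean of 0.546 CPM in CC. In TC most of that sum came from DCT, with a mean of 6456 CPM beside 407 in CC. SOX10 was the highest of these markers in CC, with a mean of 659 CPM beside 1046 in TC. PMEL had 70.1 CPM in CC and 616 in TC, while S100B had 264 and 140 CPM and MITF 362 and 321 CPM. Of 21 leukocyte markers 4 passed the filter, with summed levels of 114 to 122 CPM in CC, 151 to 176 in TC, 163 to 174 in PC and 108 to 123 in RC. Nearly all of that sum came from SIRPA and CD96, while CD2, CD3D, PDCD1 and SIRPG had no read in any library and PTPRC (CD45) averaged 0.555 CPM in CC, 0.0422 in TC, 0.140 in PC and 0.606 in RC. Fibroblast markers (3 of 7 tested) summed to 28.5 to 38.3 CPM in CC, 8.08 to 9.51 in TC, 9.58 to 13.5 in PC and 21.99 to 24.5 in RC, with COL1A2 and DCN each at most 0.0424 CPM in any group mean. LUM made up most of the CC sum (mean of 27.9 CPM in CC, 6.75 in TC, 6.72 in PC and 19.2 in RC), PDGFRA had 3.79 CPM in CC and 1.25 in TC, and COL1A1 had 0.550 CPM in CC and 3.58 in PC. Endothelial markers (1 of 4 tested) summed to 3.43 to 5.23 CPM in CC, 1.77 to 2.33 in TC, 1.72 to 2.17 in PC and 3.33 to 3.57 in RC. The part of these shifts in the results on the ligands was not tested.

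After 72 h of MAPKi, 3 of the 9 ligand genes rose (PDCD1LG2, CD47 and NECTIN2), 5 fell (NT5E, CD274, ICAM1, PVR and CD58) and CD276 was not called. Among all genes tested, 33.2% were called higher and 34.7% lower in TC than in CC, at an adjusted p under 0.05 in edgeR's quasi-likelihood test. The count of rises among the ligand genes was thus close to the share among all genes. Their median log2 fold change was -0.46, beside -0.02 over all genes tested. PDCD1LG2 passed the filter on low counts only because of TC and PC, where its mean scaled count was 34.3 and 68.0, against 3.01 in CC and 3.93 in RC; of the other 8 genes, 2 rose and 5 fell.

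At 2 days after drug removal (PC) the called genes and their directions relative to CC were those of TC: 3 rose and 5 fell, beside 33.2% of all genes called higher and 35.9% called lower. Of the 8 genes other than PDCD1LG2, which passed the filter only because of TC and PC, 2 rose and 5 fell. The TC and PC comparisons use the same CC libraries. Between PC and TC directly, no ligand gene passed the test in edgeR, where 12.2% of all genes were called higher and 12.5% lower. At an unadjusted p under 0.05 there were 2 (ICAM1 and NECTIN2, both lower in PC), and DESeq2 called 1 of the 9, ICAM1.

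At 9 days after removal (RC) CD276 was higher than in CC, CD47 and CD58 were lower, and 6 genes were not called. Of all genes tested, 18.2% were called higher and 19.1% lower in RC than in CC, so that 1 of 9 and 2 of 9 were near the shares among all genes. Between RC and PC, 5 ligand genes rose (NT5E, CD274, ICAM1, PVR and CD276) and 3 fell (PDCD1LG2, CD47 and NECTIN2), where 35.7% of all genes were called higher and 34.2% lower. CD58 was not called in that comparison. Of the 8 genes other than PDCD1LG2, 5 rose and 2 fell between RC and PC.

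**Figure D1:**
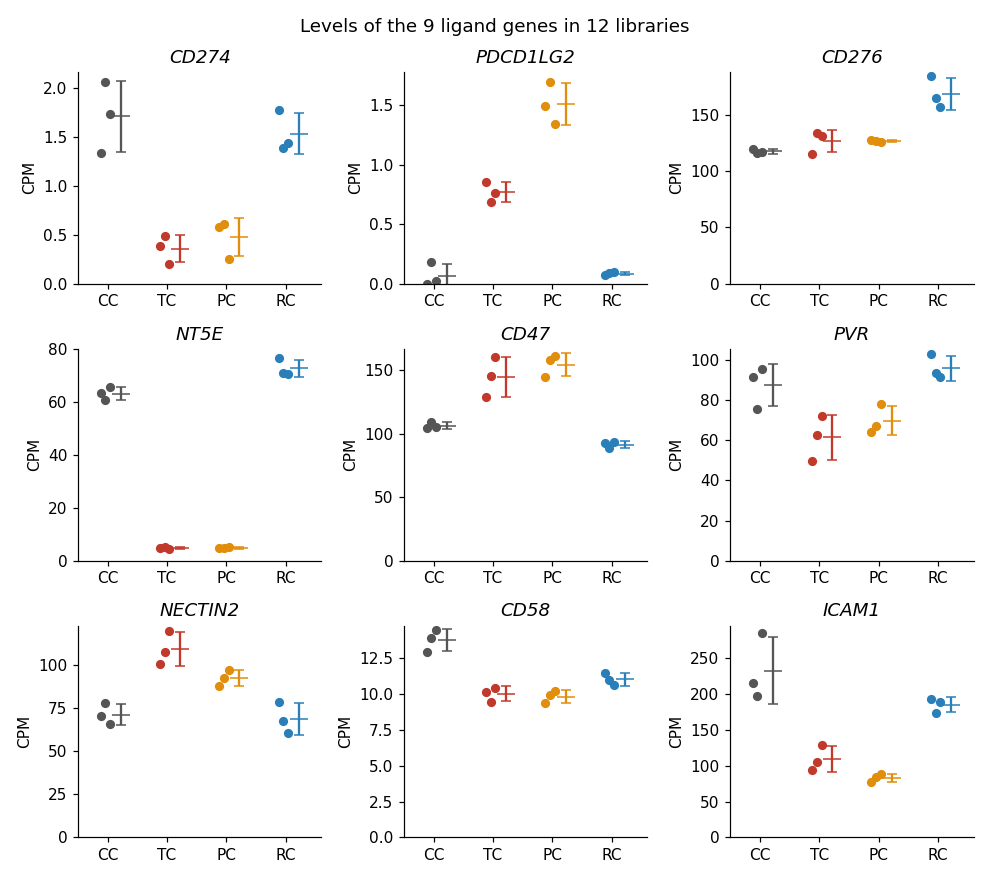
Level of each ligand gene in CPM (vertical axes, each starting at 0) in the 12 libraries, with CC as solvent control, TC after 72 h of MAPKi, PC 2 days and RC 9 days after removal. Points are libraries and the cross bars show the group mean and SD of 3 libraries (the lower end for PDCD1LG2 in CC runs below 0 and is cut at the axis). NT5E lies at 4.20 to 5.32 CPM in TC and PC and above 60 CPM in CC and RC, and PDCD1LG2 takes the opposite course, with its highest levels in PC.

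The PD-1 ligand genes moved in opposite directions. CD274 lies on chromosome 9 (GRCh38, 5450503 to 5470566, plus strand) and PDCD1LG2 lies 39964 bases downstream of it on the same strand (5510531 to 5571282). Per kilobase of exon they had the lowest levels of the 9 genes in every group.

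CD274 had 1.33, 2.06 and 1.74 CPM in the CC libraries, 0.389, 0.486 and 0.205 CPM in TC, 0.576, 0.609 and 0.255 CPM in PC, and 1.77, 1.39 and 1.44 CPM in RC. Every TC and PC library lay below every CC and RC library. These levels rest on few reads, 54 to 91 per library in CC and 11 to 28 in TC and PC. The fitted level was 4.79-fold lower in TC than in CC (log2 fold change -2.26, SE 0.37, adjusted p = 1.64e-04 in edgeR's quasi-likelihood test) and 3.55-fold lower in PC (-1.83, SE 0.36, adjusted p = 6.51e-04). Between PC and RC it rose 3.18-fold (log2 1.67, SE 0.36, adjusted p = 0.00124). RC and CC overlapped, and their difference was -0.16 with a 95% interval of -0.89 to 0.57. In these bulk libraries, fewer cells that carry a transcript and less of it per cell cannot be told apart.

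PDCD1LG2 had 0, 0.181 and 0.0212 CPM in CC, 0.856, 0.690 and 0.765 CPM in TC, 1.49, 1.70 and 1.34 CPM in PC, and 0.0739, 0.0890 and 0.0946 CPM in RC. The TC and PC libraries did not overlap with the others or with each other, and all 3 PC libraries were the higher. In reads, CC had 0, 8 and 1, and RC had 3, 5 and 5, so that these groups sat near the limit of detection (3 reads correspond to 0.0540 to 0.0794 CPM, counting error only). The fitted rise was 10.9-fold in TC (log2 fold change 3.45, SE 0.63, adjusted p = 3.90e-04) and 21.4-fold in PC (4.42, SE 0.63, adjusted p = 4.61e-05) relative to CC. Its size depended on CC replicate 2, which held 8 of the 9 CC reads: without that library the log2 fold changes were 5.78 and 6.74, and RC was called higher than CC (2.66, adjusted p = 0.027, against 0.34 and adjusted p = 0.758 with all libraries, 95% interval -1.31 to 1.98). The further rise from TC to PC was 0.97 (95% interval -0.10 to 2.03, adjusted p = 0.177) and from PC to RC the level fell 16.9-fold (log2 fold change -4.08, SE 0.60, adjusted p = 6.00e-05).

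Set against each other within a library, the reads of both genes shifted from nearly all CD274 to mostly PDCD1LG2. PDCD1LG2 made up 0%, 8.08% and 1.20% of the reads of the pair in CC, with 95% Wilson intervals of 0 to 6.64%, 4.15 to 15.1% and 0.213 to 6.51%. The TC libraries held 68.8%, 58.7% and 78.8%, the PC libraries 72.2%, 73.6% and 84.1%, and the RC libraries 4.00%, 6.02% and 6.17%. The lowest TC library was thus far above the highest CC and RC libraries. Per kilobase of exon, CD274 and PDCD1LG2 stood at 0.416 and 0.0277 CPM in CC and at 0.117 and 0.621 CPM in PC, so that PDCD1LG2 was also the more abundant of the pair on the length scale in PC.

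**Figure D2:**
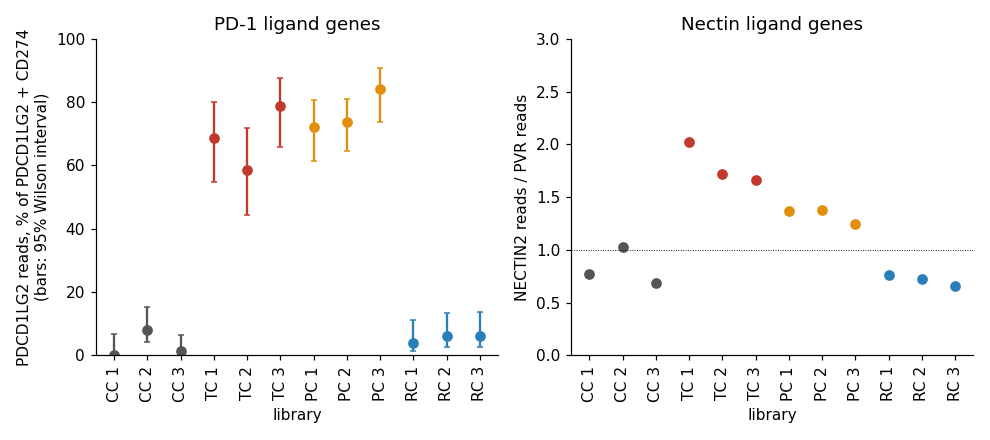
Left, reads of PDCD1LG2 as a percentage of PDCD1LG2 plus CD274 reads in each of the 12 libraries, with 95% Wilson intervals that cover counting error only. Right, NECTIN2 reads divided by PVR reads in the same libraries, with a dotted line at equal reads. The TC and PC libraries lie at 58.7 to 84.1% on the left and at 1.24 to 2.02 on the right, above the CC and RC libraries in both panels.

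The sequence upstream of CD274 is shown because the gene responds to interferon-gamma, and a GAS element (interferon-gamma activated site, the letters TTCNNNGAA, read here on both strands) is a motif of that response. In the RefSeq promoter window (GRCh38.p14, chr9:5450292-5450501, plus strand, the bases 250 to 41 before the start site) capitals mark the GAS match, 125 to 117 bases before the start.
CD274: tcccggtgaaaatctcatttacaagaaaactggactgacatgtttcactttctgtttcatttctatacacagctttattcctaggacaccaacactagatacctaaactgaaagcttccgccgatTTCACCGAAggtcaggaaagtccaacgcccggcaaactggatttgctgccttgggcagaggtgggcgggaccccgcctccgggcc
The 250 bases before the start held no match to the other motifs searched on both strands, which were AP-1 (TGANTCA), TEAD (GGAATG), NF-kappa-B (GGGANNTCC and GGAANTTCC), the E-box (CACGTG) and ETS (CCGGAA). A GAS match is present in 6.57% of the 35116 promoter windows of this length. A match of letters is no evidence of binding in these cells.

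CMTM6, whose product protects PD-L1 from degradation, had 113 CPM in CC and 127 CPM in TC and rose (log2 fold change 0.17, SE 0.06, adjusted p = 0.0215). Its relative CMTM4 went the other way, from 67.2 to 55.0 CPM (log2 fold change -0.29, SE 0.07, adjusted p = 0.00422). Among the regulators of the ligand genes the largest called rises and falls in TC were SPPL2A (79.9 to 199 CPM, log2 fold change 1.32), NFKBIA (14.7 to 29.5 CPM, 1.00), IFNGR2 (33.1 to 16.5 CPM, -1.01) and RELB (15.4 to 10.7 CPM, -0.53). SPPL2A is an intramembrane protease, NFKBIA encodes an inhibitor of NF-kappa-B, IFNGR2 a chain of the interferon-gamma receptor, and RELB a subunit of NF-kappa-B. Over the list of 19 regulators, all tested relative to CC, 7 rose and 5 fell in TC and 5 rose and 7 fell in PC. In RC 5 rose and 5 fell. The median log2 fold change was 0.05 for TC beside -0.02 over all genes. Of all genes tested, 33.2% were called higher and 34.7% lower in TC. The shares were 33.2% and 35.9% in PC and 18.2% and 19.1% in RC.

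CD276 encodes B7-H3, a member of the B7 family whose receptor is not settled, and lies on chromosome 15 (73683966 to 73714514, plus strand). Its level was 119.7, 115.6 and 116.9 CPM in CC, 115.2, 133.5 and 130.8 CPM in TC, 127.7, 126.3 and 125.3 CPM in PC, and 184.3, 164.2 and 156.8 CPM in RC. The 3 RC libraries lay above the other 9. Its change was 1.43-fold in RC relative to CC (log2 fold change 0.52, SE 0.07, adjusted p = 2.27e-04) and 1.33-fold relative to PC (0.41, adjusted p = 2.39e-04). In TC and PC the log2 differences from CC were 0.11 and 0.11, each with a 95% interval of -0.05 to 0.26. Without TC replicate 1, the lowest of its group, the TC difference was 0.17 and passed the test (adjusted p = 0.0474).

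Among the 8 ligand genes other than PDCD1LG2, NT5E had the largest fitted changes in TC and PC. It encodes CD73, the ectoenzyme that turns AMP into adenosine, on chromosome 6 (85449584 to 85495791, plus strand). The libraries gave 63.5, 60.8 and 65.6 CPM in CC, 4.85, 5.01 and 4.20 CPM in TC, 4.61, 4.59 and 5.32 CPM in PC, and 76.7, 71.0 and 70.7 CPM in RC. TC and PC overlapped with each other and lay far below CC, while RC lay entirely above CC. The level was 13.5-fold lower in TC (log2 fold change -3.76, SE 0.09, adjusted p = 2.96e-11) and 13.1-fold lower in PC (-3.71, SE 0.09, adjusted p = 2.53e-11) than in CC, and 15.0-fold higher in RC than in PC (3.91, adjusted p = 3.10e-11). RC exceeded CC by 0.20 (95% interval 0.03 to 0.37, adjusted p = 0.0615). That difference passed the test without CC replicate 3 (0.23, adjusted p = 0.0471), without TC replicate 3 (0.20, adjusted p = 0.0442) and in DESeq2 (0.21, adjusted p = 0.027).

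Of 14 other genes of the adenosine pathway 8 were tested, of which 2 rose and 5 fell in TC and 2 rose and 6 fell in PC, and in RC 3 were higher and 2 lower than in CC. The median of the 8 was -0.75 in TC and -0.75 in PC, beside -0.02 and -0.04 over all genes, of which 34.7% and 35.9% were called lower. In either comparison 33.2% of all genes were called higher. For RC 18.2% of all genes were called higher than in CC and 19.1% lower. ENTPD1 (CD39), which supplies AMP to CD73 by cleaving ATP and ADP, had 20.01 CPM in CC, 10.7 in TC, 11.6 in PC and 15.7 in RC, and its log2 fold change in TC was -0.90 (SE 0.12, adjusted p = 2.31e-05). ENPP1, another ectoenzyme that releases AMP from nucleotides, had 23.5, 7.95, 8.02 and 16.9 CPM in the same order (-1.56, SE 0.13, adjusted p = 3.34e-07). The adenosine receptor gene ADORA1 fell from 1.59 to 0.380 CPM (-2.05, SE 0.63, adjusted p = 0.0114), and ADORA2B, the low-affinity adenosine receptor, rose from 19.1 to 24.2 CPM (0.34, SE 0.11, adjusted p = 0.0145). ADK, the kinase that removes adenosine inside the cell, rose from 31.3 to 35.6 CPM (0.19, SE 0.06, adjusted p = 0.0224).

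CD47 went up under MAPKi and ended below the control. The gene lies on chromosome 3 (108043091 to 108091862, minus strand), and its product is the signal that restrains phagocytosis. It had 104.3, 109.4 and 105.2 CPM in CC, 129.0, 145.4 and 160.7 CPM in TC, 144.8, 157.9 and 161.3 CPM in PC, and 92.5, 88.4 and 93.1 CPM in RC. Every TC and PC library lay above the CC libraries and every RC library below them. The rise was 1.36-fold in TC (log2 fold change 0.45, SE 0.08, adjusted p = 2.29e-04) and 1.45-fold in PC (0.54, SE 0.08, adjusted p = 4.66e-05), and RC was 1.69-fold below PC (-0.76, SE 0.08, adjusted p = 2.39e-06). The call in RC relative to CC (-0.22, SE 0.08, adjusted p = 0.0425) was lost under 12 of 20 alternatives, among them each of the 9 that left out a library other than TC replicate 1, TC replicate 3 and PC replicate 1, with log2 fold changes of -0.23 to -0.19 and adjusted p up to 0.135.

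SIRPA, which encodes the CD47 receptor and is usually read on macrophages, was itself present in these cells and was looked up with the leukocyte markers. Its level was 77.9 CPM in CC, 161 CPM in TC, 165 CPM in PC and 65.0 CPM in RC (TC relative to CC 1.04, SE 0.08, adjusted p = 1.36e-07). The macrophage markers CD14 and ITGAM were low in the same libraries, with CD14 at 0.166 CPM in CC and 0.0419 CPM in TC and ITGAM at 0.384 and 0.149 CPM. LYZ, another leukocyte marker that passed the filter, had 1.05 CPM in CC, 0.788 in TC, 0.496 in PC and 0.822 in RC. QPCTL, the enzyme that modifies the end of CD47 to which SIRP-alpha binds, had 44.7 CPM in CC and 37.7 CPM in TC (-0.25, SE 0.10, adjusted p = 0.0464).

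The nectin ligand genes PVR (CD155) and NECTIN2 (CD112) lie 180012 bases apart on chromosome 19 (44643798 to 44666162 and 44846175 to 44889223, both on the plus strand) and moved in opposite directions under MAPKi. PVR had 91.7, 75.5 and 95.6 CPM in CC, 49.8, 62.5 and 72.2 CPM in TC, 64.0, 67.3 and 78.3 CPM in PC, and 103.1, 93.4 and 91.6 CPM in RC. TC lay below CC without overlap, whereas PC overlapped with CC through CC replicate 2. The fall was 1.42-fold in TC (log2 fold change -0.51, SE 0.13, adjusted p = 0.00432), and in PC it was smaller (-0.33, SE 0.13, adjusted p = 0.0423). The PC call was lost under 10 of 20 alternatives, which included leaving out CC replicate 1 or 3, TC replicate 2, PC replicate 1 or 2 or any RC library, with log2 fold changes from -0.33 to -0.25 and adjusted p from 0.0542 to 0.141. The transcript rose from PC to RC (0.46, SE 0.13, adjusted p = 0.00771), and RC differed from CC by 0.13 (95% interval -0.15 to 0.42).

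NECTIN2 had 70.4, 77.7 and 65.6 CPM in CC, 100.8, 107.2 and 119.9 CPM in TC, 87.9, 92.6 and 97.2 CPM in PC, and 78.7, 67.6 and 60.3 CPM in RC. The TC and PC libraries lay above all CC and RC libraries. The rise relative to CC was 1.53-fold in TC (log2 fold change 0.62, SE 0.10, adjusted p = 1.63e-04) and 1.30-fold in PC (0.38, SE 0.10, adjusted p = 0.00535), and RC was 1.35-fold below PC (-0.43, SE 0.10, adjusted p = 0.00238). RC and CC overlapped, with a difference of -0.05 (95% interval -0.27 to 0.17).

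As a ratio within each library, NECTIN2 reads per PVR read were 0.768, 1.03 and 0.687 for the CC libraries and 2.02, 1.72 and 1.66 for TC. They were 1.37, 1.38 and 1.24 for PC and 0.763, 0.723 and 0.659 for RC. The 6 TC and PC libraries lay above the 6 others. PVR has the longer exons, and per kilobase NECTIN2 had the higher level in every group, with 19.0 against 8.40 CPM in CC and 29.2 against 5.90 CPM in TC. Exons of PVR share 121 bases with CEACAM19 on the same strand and 2028 bases with an unnamed annotation on that strand, and NECTIN2 shares 128 bases with an antisense lncRNA. Reads of CEACAM19 came to 0.586% of those of PVR, and the other annotations had no row in the table.

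Of 22 further nectins and adhesion ligands 16 were tested, of which 10 rose and 2 fell in TC, 10 rose and 3 fell in PC, and 3 were higher and 6 lower in RC than in CC. The median log2 fold change was 0.60 in TC and 0.61 in PC, beside -0.02 and -0.04 over all genes. Of all genes, 33.2% were called higher in either comparison, with 34.7% lower in TC and 35.9% lower in PC. In RC 18.2% of all genes were called higher and 19.1% lower. ALCAM, the ligand of CD6 on T cells, had 53.9, 45.6 and 45.7 CPM in CC and 167, 207 and 220 CPM in TC, a rise of 2.03 in log2 terms (SE 0.11, adjusted p = 1.41e-08), and stood at 234 CPM in PC and 35.7 CPM in RC. NECTIN3, the partner that PVR and NECTIN2 bind on neighbouring cells, was not called in TC (47.8 and 51.2 CPM, log2 difference 0.10, SE 0.08) but rose in PC to 73.7 CPM (0.62, adjusted p = 1.50e-05) and was higher in RC at 79.3 CPM (0.73, adjusted p = 5.11e-05). NCAM1 (CD56) fell from 27.0 to 14.4 CPM (-0.90, SE 0.20, adjusted p = 0.0017). The remaining genes with the largest called changes were at low levels. NECTIN4 had 0.0292 CPM in CC, under 3 reads in each library, and 0.233, 0.358 and 1.36 CPM in TC. These were 9, 14 and 73 reads, so that the TC mean rests mostly on replicate 3. NECTIN4 passed the filter on low counts only because of TC and PC. ICAM4, whose CC reads came mostly from replicate 3, had 1.70 CPM in CC and 0.298 in TC.

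CD96, an inhibitory receptor for PVR on lymphocytes, was among the 4 leukocyte markers that passed the filter on low counts. It had 32.6, 40.4 and 36.1 CPM in CC, 1.58, 2.53 and 2.50 CPM in TC, 1.83, 2.30 and 3.42 CPM in PC, and 51.3, 47.5 and 43.8 CPM in RC. Every TC and PC library lay below every CC and RC library (log2 fold change in TC -4.03, SE 0.22, adjusted p = 1.04e-08). The lymphocyte genes CD2, CD3D and PDCD1 had no read, and ZBED2, a gene that lies on the opposite strand within CD96, had 1 read in all libraries. Some other leukocyte markers, present at low levels, also had lower means in TC and PC than in CC. CTLA4 had a mean of 0.406 CPM in CC, 0.0124 in TC, 0 in PC and 0.226 in RC. CD4 had 0.427, 0.117, 0.0957 and 0.214 CPM in the same order, and PTPRC is given above. Others went the other way, with CD226 at 0.153 CPM in CC, 0.274 in TC and 0.196 in PC and NKG7 at 0.0600, 0.0918 and 0.0730. ITGB2 had 0.0661 CPM in CC, 0.0465 in TC and 0.243 in PC. Their part in the result on CD96 was not tested.

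Of the 9 ligand genes, the adhesion ligand genes CD58 and ICAM1 fell under MAPKi, unlike most of the further nectins and adhesion ligands given above. CD58 encodes LFA-3, the partner of CD2 on T and NK cells, and lies on chromosome 1 (116514534 to 116571039, minus strand). It had 12.96, 13.9 and 14.4 CPM in CC, 10.2, 9.43 and 10.5 CPM in TC, 9.34, 9.96 and 10.2 CPM in PC, and 11.5, 10.97 and 10.6 CPM in RC. The RC libraries lay between the others without overlap with CC or PC. The level was 1.38-fold lower in TC (log2 fold change -0.46, SE 0.09, adjusted p = 4.68e-04), 1.40-fold lower in PC (-0.49, SE 0.09, adjusted p = 2.87e-04) and 1.25-fold lower in RC (-0.32, SE 0.09, adjusted p = 0.0121) than in CC. The RC call was lost under 5 of 20 alternatives: without RC replicate 2 (-0.31, adjusted p = 0.0505), without RC replicate 3 (-0.29, adjusted p = 0.0538), with the 2 groups alone (adjusted p = 0.0537), with a filter at a summed count of 2 (adjusted p = 0.0575) and under the threshold rule of the study. From PC to RC the difference was 0.17 (95% interval -0.02 to 0.36, adjusted p = 0.104), and CD58 was the ligand gene that was not called in that comparison. CD47 and CD58, both bound by receptors of the immunoglobulin family, moved apart, with 7.28 to 8.05 CD47 reads per CD58 read in CC, 12.7 to 15.4 in TC, 15.5 to 15.9 in PC and 8.04 to 8.76 in RC.

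ICAM1 is the ligand of LFA-1 and of Mac-1 and lies on chromosome 19 (10271093 to 10286615, plus strand). It had 215.6, 197.0 and 285.3 CPM in CC, 94.0, 105.8 and 128.9 CPM in TC, 77.2, 84.8 and 88.0 CPM in PC, and 193.7, 174.0 and 188.5 CPM in RC. No neighbouring groups overlapped in the order PC, TC, RC, CC, although the lowest CC library was close to the highest RC library. The level was 2.12-fold lower in TC (log2 fold change -1.09, SE 0.14, adjusted p = 1.98e-05) and 2.79-fold lower in PC (-1.48, SE 0.14, adjusted p = 1.32e-06) than in CC, and rose 2.22-fold from PC to RC (1.15, SE 0.14, adjusted p = 1.09e-05). The further difference of PC from TC was -0.40 (95% interval -0.70 to -0.09, adjusted p = 0.0558), and it passed the test without CC replicate 2 (adjusted p = 0.0358), CC replicate 3 (0.014) or TC replicate 1 (0.0351). RC lay below CC by a fitted -0.33 (95% interval -0.63 to -0.03, adjusted p = 0.0791), which was -0.43 with an adjusted p of 0.0268 without CC replicate 2. Exons of ICAM1 share 815 bases with the antisense lncRNA ICAM4-AS1 and 61 bases with LIMASI, neither of which had a row in the table.

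The promoter of ICAM1 is shown because NF-kappa-B and ETS factors are textbook inputs to this gene and 6 motif matches lay in its window, the most of any ligand gene. In the RefSeq window (GRCh38.p14, chr19:10270870-10271079, plus strand, the bases 250 to 41 before the start site) capitals mark the matches, read on both strands: an NF-kappa-B match (GGAANTTCC) 186 to 178 bases before the start, ETS matches (CCGGAA) at 181 to 176, 120 to 115, 98 to 93 and 75 to 70, and a GAS match (TTCNNNGAA) at 75 to 67. The first ETS match overlaps the NF-kappa-B match and the last overlaps the GAS match.
ICAM1: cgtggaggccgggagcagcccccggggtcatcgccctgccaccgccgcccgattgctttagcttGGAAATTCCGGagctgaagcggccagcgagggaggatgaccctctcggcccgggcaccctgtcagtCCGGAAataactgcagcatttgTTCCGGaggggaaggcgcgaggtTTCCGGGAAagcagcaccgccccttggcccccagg
Of all 35116 promoter windows, 0.826% held this NF-kappa-B form, 14.5% an ETS match and 6.57% a GAS match. Among the other ligand genes with a window (8 of 9 had one, with PDCD1LG2 not in the table used), CD276 had 1 ETS match, CD58 had 2 TEAD matches, PVR had 1 TEAD match, and CD47, NECTIN2 and NT5E had none. TEAD matches are found in 11.9% of windows, AP-1 in 6.57%, the E-box in 6.34% and the other NF-kappa-B form (GGGANNTCC) in 4.04%.

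**Figure D3:**
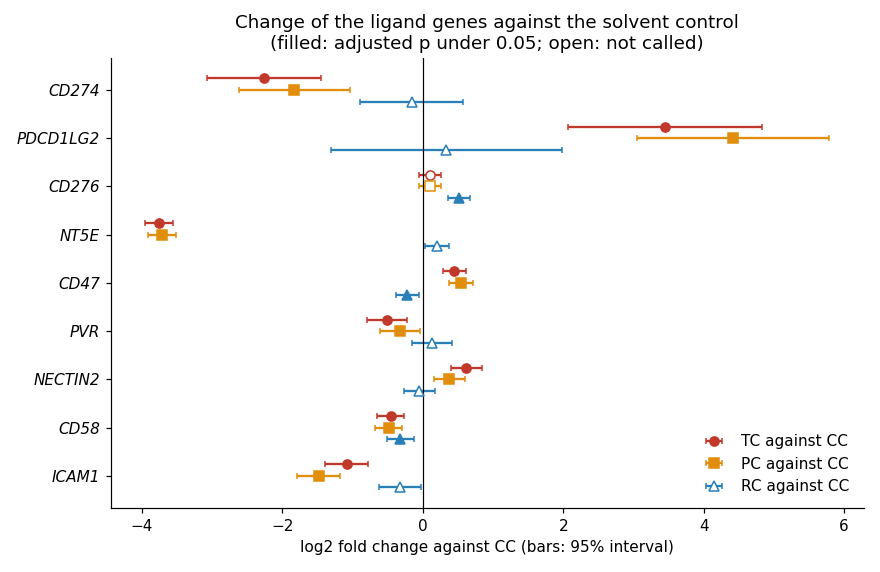
Fitted log2 fold change of each ligand gene (rows) in TC, PC and RC relative to the same CC libraries, with 95% intervals. Filled symbols have an adjusted p under 0.05 in edgeR's quasi-likelihood test and open symbols do not. PDCD1LG2 lies at 3.45 and 4.42 in TC and PC with wide intervals, NT5E at -3.76 and -3.71 with narrow ones, and the RC symbols lie between -0.33 and 0.52.

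On a scale that allows genes to be compared (CPM per kilobase of exon), ICAM1 was the most abundant ligand transcript in CC at 67.5, ahead of CD276 at 21.4, NECTIN2 at 19.0, NT5E at 14.0, CD47 at 12.9, PVR at 8.40, CD58 at 7.72, CD274 at 0.416 and PDCD1LG2 at 0.0277. In TC the order was led by ICAM1 at 31.8 and NECTIN2 at 29.2, with CD276 at 23.1, CD47 at 17.6 and NT5E down at 1.03. In PC NECTIN2 at 24.7, ICAM1 at 24.2 and CD276 at 23.1 stood close together. RC again had ICAM1 first at 53.8, followed by CD276 at 30.7, NECTIN2 at 18.4 and NT5E at 16.1.

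For each ligand gene the 2 tested genes with the most similar course over the 12 libraries were found by the root mean square (RMS) difference of centred log2(CPM + 0.5) values, among genes with a mean of at least 1 CPM. ETV1 (0.195) and MYEOV (0.201) came nearest to NT5E. MYEOV had 4.36 CPM in CC, 0.0170 in TC, 0.0227 in PC and 5.05 in RC, and the added 0.5 CPM shrinks these changes. ETV1, an ETS transcription factor gene, had 85.6 CPM in CC, 6.18 in TC, 7.47 in PC and 79.9 in RC. GK (0.177) and LOC441666 (0.178) were nearest to CD274, and SLC31A1 (0.145) and ACSL1 (0.145) to ICAM1. GK had 7.85 CPM in CC and 3.23 in TC, beside 1.71 and 0.360 for CD274, whose changes the added 0.5 CPM also shrinks. SLC31A1, a copper transporter gene, had 149 CPM in CC, 69.6 in TC, 55.8 in PC and 118 in RC. CD47 was closest to AVEN (0.0645) and CERS2 (0.0691), CD276 to TACC1 (0.0575) and PSMD3 (0.0778), CD58 to VPS51 (0.0713) and ZNF593 (0.0759), NECTIN2 to INTS5 (0.0759) and LAMP1 (0.0783), and PVR to ZDHHC20 (0.0832) and SVIL (0.0946). For PDCD1LG2 the nearest were PEBP1 (0.121) and PITHD1 (0.1298), which rose from a high level, 267 CPM in CC to 584 in TC and 922 in PC for PEBP1, while the added 0.5 CPM shrinks the changes of a gene as low as PDCD1LG2. These distances are descriptions that share libraries, and no p was computed for them.

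Other surface molecules that meet the same cells were counted from lists of 128 genes in all, of which 80 were tested. In TC 32 rose and 28 fell, in PC 31 rose and 32 fell, and in RC 14 were higher and 22 lower than in CC, with median log2 fold changes of 0.02, 0.06 and -0.00. Among all genes tested, the shares were 33.2% higher and 34.7% lower for TC, 33.2% and 35.9% for PC, and 18.2% and 19.1% for RC, with medians of -0.02, -0.04 and 0.00. The list of 28 other checkpoint ligands also held costimulatory molecules. Among them CD70, TNFSF9 and CD40 fell in TC and TNFSF4 was not called. Of the 28 genes 14 were tested, of which 1 rose and 10 fell in TC. In PC 1 of the 14 rose and 10 fell, and in RC 2 were higher and 5 lower. Their median was -0.67 in TC and -1.35 in PC, beside -0.02 and -0.04 over all genes. CD200, whose receptor restrains myeloid cells, had 41.1, 43.6 and 40.2 CPM in CC and 2.67, 3.66 and 3.86 CPM in TC (log2 fold change -3.61, SE 0.16, adjusted p = 1.72e-09), then 2.54 CPM in PC and 20.2 CPM in RC. It was still called lower in RC than in CC (-1.05, adjusted p = 1.86e-04). CEACAM1, a homophilic inhibitory receptor and ligand, had 3.71 CPM in CC, 0.180 in TC, 0.531 in PC and 1.80 in RC (TC -4.40, SE 0.43, adjusted p = 1.79e-06). The 1 gene that rose was CD24, the ligand of Siglec-10, with 4, 1 and 1 reads in the CC libraries, 23, 16 and 50 reads in TC, 14, 28 and 22 reads in PC, and 12, 6 and 0 reads in RC. It passed the filter on low counts only because of TC and PC.

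The list of NK cell and death ligands, which also held death receptor genes, moved both ways. In TC 3 rose and 6 fell among 9 tested of 15, in PC 3 rose and 5 fell, and in RC 1 was lower. The death receptor genes FAS, TNFRSF10A and TNFRSF10B were among the 6 falls in TC. The death ligand genes FASLG and TNFSF10 were not tested. Of all genes tested, 33.2% were called higher and 34.7% lower in TC. The 3 of 9 that rose were thus near that share, whereas the 6 of 9 that fell were above it. The shares were 33.2% and 35.9% in PC and 18.2% and 19.1% in RC. ULBP2, a ligand of the activating receptor NKG2D, had 4.48 CPM in CC, 19.1 in TC, 26.6 in PC and 5.58 in RC (TC 2.09, SE 0.20, adjusted p = 1.42e-06), and RAET1G, of the same family, went from 0.179 to 0.404 CPM (1.16, SE 0.39, adjusted p = 0.0187). RAET1G had 5, 8 and 11 reads in CC and 13, 16 and 25 in TC. It passed the filter on low counts only because of TC and PC. NCR3LG1 (B7-H6), the ligand of NKp30, had 48.8, 27.4 and 54.0 CPM in CC and 10.2, 9.77 and 8.60 CPM in TC (-2.19, SE 0.20, adjusted p = 1.04e-06), with 6.23 CPM in PC and 38.6 CPM in RC. TNFRSF10A, a death receptor for TRAIL, fell from 5.55 to 0.608 CPM (-3.19, SE 0.38, adjusted p = 1.02e-05).

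Genes of MHC antigen presentation need a separate count, because the table splits many of them over rows named as numbered copies of the symbol, 5088 such rows in all. No ligand gene had such a copy, but 27 of the 128 list genes did, and 23 of these had over 50% of their reads in copies. Among the 23 were MICA and MICB of the NK list, with 99.8% and 99.9% of their reads in copies. As listed, MICA and MICB were not tested. With rows as listed, 7 of 11 tested MHC class I genes rose in TC, led by PSMB10, an immunoproteasome subunit (21.5 to 58.4 CPM, log2 fold change 1.44, SE 0.09, adjusted p = 2.59e-08). In PC 7 rose and 1 fell, and in RC 1 was higher and 3 were lower. Of the PC rises, that of the chaperone gene CANX rested on 1 PC library (47, 2562 and 56 reads), and with its copies summed CANX was lower in PC than in CC (-0.43, SE 0.13, adjusted p = 0.0107). Of the 12 MHC class II genes 3 were tested as listed, and CD74, the invariant chain (869 to 3249 CPM, 1.90, SE 0.11, adjusted p = 1.62e-08), and CIITA, the class II transactivator (54.1 to 147 CPM, 1.44, SE 0.16, adjusted p = 4.52e-06), rose in TC. In PC the third, HLA-DPB1, was called higher as well, but it had 0, 11 and 0 reads in CC and 60, 0 and 36 in PC, and passed the filter only through 2 PC libraries. In RC the 3 were not called. Of all genes tested as listed, 33.2% were called higher and 34.7% lower in TC. The shares were 33.2% and 35.9% in PC and 18.2% and 19.1% in RC.

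With numbered copies summed, an alternative chosen after seeing the data, 18 class I genes were tested. Of these, 8 rose and 2 fell in TC (median 0.47) and 7 rose and 4 fell in PC. In RC 2 were higher and 4 lower. Of all 15642 genes tested in this way, 5343 rose and 5407 fell in TC (median -0.004). In PC 5322 rose and 5619 fell, and in RC 3009 were higher and 2981 lower. The class I heavy chain gene HLA-B had 197 CPM in CC and 358 in TC (0.86, SE 0.16, adjusted p = 4.27e-04), HLA-C 421 and 595 (0.50, SE 0.07, adjusted p = 4.42e-05), and B2M, the light chain, 86.5 and 171 (0.98, SE 0.09, adjusted p = 1.10e-06). TAP2, a subunit of the peptide transporter, fell from 7.24 to 2.84 CPM (-1.35, SE 0.24, adjusted p = 2.47e-04). Of 11 class II genes tested when summed, 10 rose in TC (median 1.92) and 11 rose in PC (1.96), and in RC 1 was lower than in CC. HLA-DRB1, whose symbol row held no read, had 95.5 CPM in CC, 416 in TC, 452 in PC and 108 in RC (TC 2.12, SE 0.09, adjusted p = 1.17e-09). HLA-DRA, its partner chain, had 61.1, 241, 238 and 53.5 CPM in the same order (1.98, SE 0.20, adjusted p = 1.87e-06). With copies summed, 11 genes of the NK list were tested, of which 4 rose and 6 fell in TC. MICA was then called higher in TC than in CC (10.2 to 16.1 CPM, 0.65, SE 0.15, adjusted p = 0.00199) and MICB was not called.

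**Figure D4:**
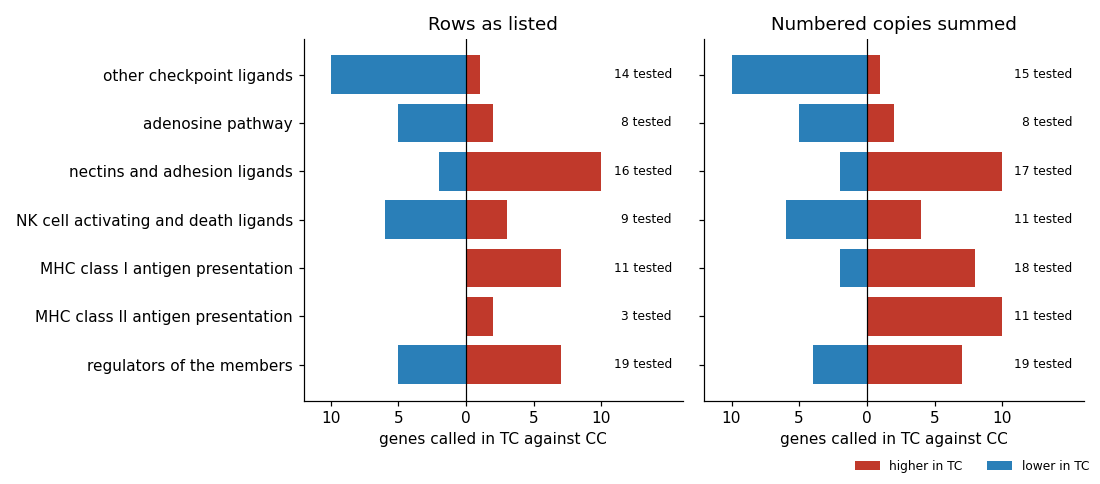
Number of genes called higher (right of 0) or lower (left of 0) in TC than in CC in each list of related genes, with rows of the table as listed (left) and with rows named as numbered copies added to their symbol (right). The number tested stands beside each bar. In the list of other checkpoint ligands, which also holds costimulatory molecules, 10 fell and 1 rose in both panels. The NK list also holds death receptors. The class II list goes from 2 of 3 higher to 10 of 11 higher once copies are summed.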

How the data were processed

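The values deposited for the 12 libraries are raw counts of reads per gene that were not normalized. The authors trimmed reads with fastp 0.20.1, aligned them to GRCh38.p13 with HISAT2 2.2.1 and counted reads on exons with HTSeq 0.13.5. Whether counting used strand, and how reads with several alignments were treated, was not given in the sources used here, so reads from antisense or duplicated genes cannot be assigned. Genes with a mean scaled count of at least 10 were tested (15916 genes, TMM factors 0.965 to 1.02) in 1 edgeR 4.0.16 quasi-likelihood fit (glmQLFit and glmQLFTest, R 4.3.3) with a mean per group and 8 residual degrees of freedom. Tests were two-sided, and calls were made at p under 0.05 after Benjamini-Hochberg adjustment over all genes tested. Standard errors were derived from the F statistic, and intervals for fold changes and shares are 95% intervals. The procedure was tested on simulated data, and no pair of libraries was a duplicate.

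The members and the gene lists were chosen with earlier results of these data known. From each list the text names up to 2 genes with the largest called rise and fall in TC and the direct partners of a member, with 1 such gene not reported here. SIRPA, CD96, CANX, HLA-DPB1, the single marker genes and the summed MHC genes outside that rule were picked after their values were seen. The same holds for MICA, MICB and the costimulatory, death receptor and death ligand genes named outside that rule. Gene positions and exon lengths are from GENCODE v44, whereas counting used the NCBI annotation, and promoters from RefSeq. Alternatives were DESeq2 1.42.0 size factors, library totals, a filter at a summed count of 2, the replicate number as a block, the 2 compared groups only, each library left out, DESeq2, DESeq2 against a log2 threshold of 0.585 as in the study, and numbered copies summed.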

Additional observations from a re-analysis of the deposited data

How the results depend on the processing

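Over 20 alternatives, the 45 differences of the 9 ligand genes gave 900 values, of which 843 kept their side of the threshold, 39 were no longer past it and 18 came past it. In 0 values did a called difference change sign, but differences that were not called did: NECTIN2 (-0.15 to 0.04) and PDCD1LG2 (-0.19 to 2.66) in RC against CC, and CD58 (-0.07 to 0.01), NT5E (-0.03 to 0.10) and CD276 (-0.06 to 0.04) in PC against TC. Of 27 called differences, 12 were kept under every alternative. The rule of the study (DESeq2 tested against a log2 threshold) asks for a larger change, so it called fewer: 4542 genes in TC, 4760 in PC and 411 in RC against CC, 441 in PC against TC and 4980 in RC against PC. It called 4, 4 and 0 ligand genes in TC, PC and RC against CC, 4 in RC against PC, and 29, 34 and 1 genes of the wider lists. For RC against CC, a summed count of at least 2 left 1 ligand gene called, and leaving out 1 library gave 1 to 4, with 1 without RC replicate 2 and 1 without RC replicate 3. For PC against TC, DESeq2 called 1, numbered copies summed 1, the 2 groups alone 3 (PDCD1LG2, ICAM1 and NECTIN2), and leaving out 1 library 0 to 2. Deviations of same-numbered libraries from their group means correlated by -0.0473 to 0.202, over 0.1 in 2 of 18 pairs. Those of libraries with another number correlated by -0.174 to 0.0591. The 2 pairs over 0.1 were TC and PC replicate 1 (0.202) and TC and PC replicate 3 (0.181). The main fit used no pairing, and whether TC and PC libraries were paired is not known from the labels. With the replicate block 1 ligand gene was called in PC against TC, ICAM1 (-0.39, adjusted p = 0.0224 in edgeR), which was then also called lower in RC than in CC (-0.31, adjusted p = 0.038). Why calls near the threshold moved was not tested. Depth limits CD274 and PDCD1LG2, since 3 reads correspond to 0.0540 to 0.0794 CPM.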
